A study of Saccharomyces cerevisiae with 9 samples.

Results

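The mitochondrial matrix chaperones help other proteins inside the mitochondrion to be imported, to fold or to receive iron-sulfur clusters. The set was taken by gene symbol and holds 8 genes, HSP60, HSP10, SSC1, ECM10, MDJ1, MGE1, SSQ1 and JAC1. Of these, 7 were among the 5189 genes found on both array platforms of the study, with 1 spot on each, and SSQ1 (YLR369W) was not analysed here. The samples were yeast (Saccharomyces cerevisiae, the laboratory strain S288C) 15, 30 or 60 min after complete thawing, each set on a 2-channel array against a control portion of culture taken before freezing. Recovering cells had reached an absorbance of 1.0 in YPD (a rich medium, 30 °C), were kept frozen at -80 °C for 1 week with no cryoprotectant, and thawed at 30 °C over 25 min. The control was grown in the same way and never frozen. Poly(A) RNA of recovering cells carried Cy5 and that of the control Cy3 on every array, with 3 arrays per time point described as independent biological samples.

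Hsp60 is a barrel-shaped chaperonin in which an imported protein folds while Hsp10 closes the opening as a lid. Ssc1, the main Hsp70 of the matrix, pulls precursors through the inner membrane and helps them fold. Mdj1 is a J-protein that triggers its ATP use in folding, and Mge1 is the factor that releases its nucleotide. Ecm10 is a close paralog of Ssc1, and Ssq1 and Jac1 are a specialised Hsp70 and J-protein that move iron-sulfur clusters off the scaffold protein Isu1. HSP60, HSP10, SSC1 and MDJ1 are known to be induced by heat, and HSP60, HSP10, SSC1, MGE1 and JAC1 are essential for growth.

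All values are log2 ratios of recovering cells over cells before freezing, so that 1 unit is a doubling. The labels make this direction likely and the tables do not state it, and every sign would turn in the other case. Across genes, every array correlated positively with every other (0.0858 to 0.705). The arrays held 2765 to 5772 spots with a value, and the SD of an array's log2 ratios lay between 0.440 and 0.798 on the arrays of 15 min, between 0.555 and 0.733 on those of 30 min and between 0.674 and 1.02 on those of 60 min. The ratios are relative to the other transcripts on an array, so less mRNA per cell and fewer living cells cannot be told apart, and a dye effect on 1 gene cannot be told apart from its ratio at any single time, since the dyes were never exchanged. Replicate 1 of each time was on the first platform and replicates 2 and 3 on the second. Of the 63 possible values of the 7 genes, 51 were present. HSP10, SSC1 and MGE1 had a value on all 9 arrays, HSP60 and MDJ1 on 8, JAC1 on 5 and ECM10 on 3, while 31.9% of all genes had 9 values.

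The chaperonin was higher and the main matrix Hsp70 lower at 60 min, whereas no gene of the set passed at 15 or 30 min in the main fit. MDJ1 passed at both of these times with the replicate number as a block. At 30 min it also passed with only that time's arrays and with array weights. HSP60 rose 3.13-fold and HSP10 2.00-fold at 60 min, and SSC1 fell 1.96-fold. Each gene was tested with limma against a log2 ratio of 0 when all 3 arrays of a time had a value, and passed at a Benjamini-Hochberg adjusted p under 0.05 over all genes tested. At 60 min 3 of the 4 members tested passed, where 33.2% of 2952 genes passed in either direction, 15.6% as higher and 17.5% as lower. At 15 min limma called 0 of 4 members (unadjusted p below 0.05 for 2), where 1.16% of 2148 genes passed, 0.838% as higher and 0.326% as lower. At 30 min limma called 0 of 5 members (unadjusted p below 0.05 for 1), where 4.34% of 3320 genes passed, 2.29% as higher and 2.05% as lower. On the second platform alone, without replicate 1, the means at 60 min were 1.69 for HSP60, 0.90 for HSP10 and -0.93 for SSC1. There HSP60 passed, and HSP10 and SSC1 did not. The first platform held 1 array per time, which gives no test. The median over the members tested was 0.48, 0.44 and 0.78 at 15, 30 and 60 min, beside -0.0534, -0.0799 and -0.0563 over all genes tested. These medians are over different genes, since HSP60 was not tested at 15 min and MDJ1 was not tested at 60 min. HSP10, SSC1 and MGE1 were tested at every time.

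**Figure D1:**
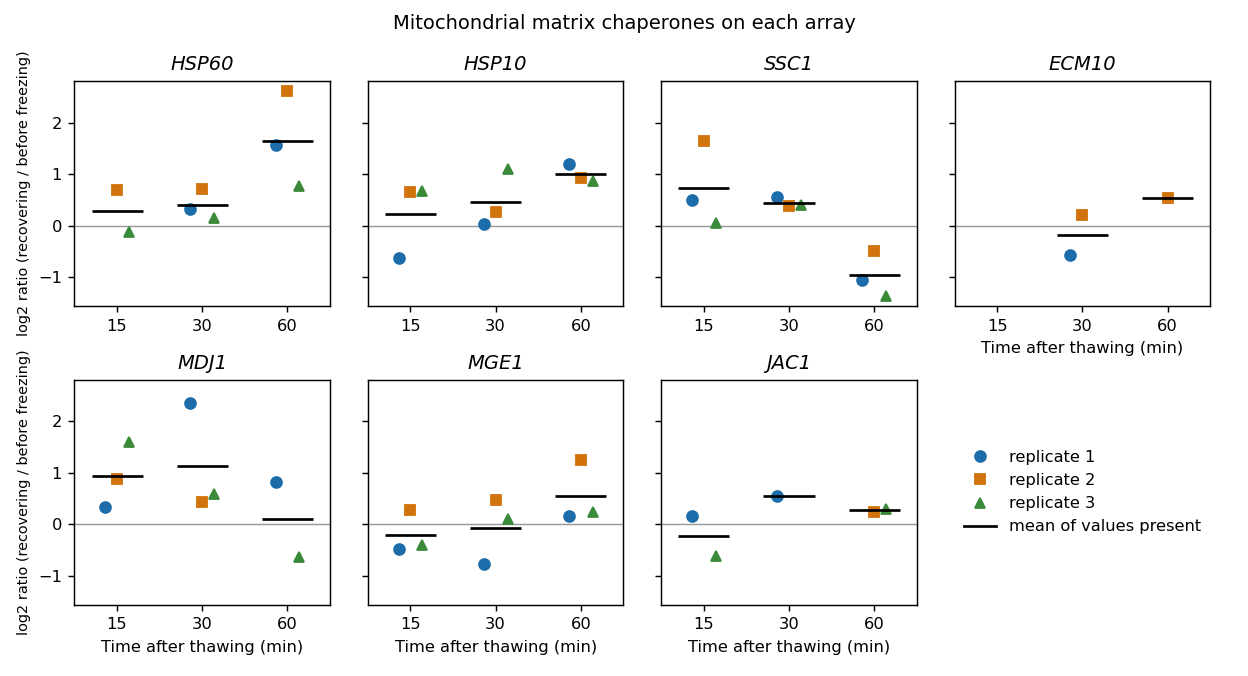
Log2 ratio of recovering cells over cells before freezing (vertical axis) at 15, 30 and 60 min after thawing for 7 matrix chaperone genes, with a symbol for each replicate and a black line at the mean of the values present. HSP60 lies between 0.77 and 2.61 at 60 min, while SSC1 lies between -1.37 and -0.49.

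HSP60 (YLR259C) had the highest mean of the set at 60 min. Its log2 ratio at 15 min was 0.69 and -0.13 in replicates 2 and 3, with no value in replicate 1. At 30 min it was 0.32, 0.71 and 0.16 in replicates 1, 2 and 3, and at 60 min 1.57, 2.61 and 0.77. The lowest value at 60 min lay above the highest at the earlier times. The mean was 0.40 ± 0.31 at 30 min (SE from limma, n = 3, adjusted p = 0.545) and 1.65 ± 0.31 at 60 min (95% interval 1.01 to 2.29, adjusted p = 0.000329). HSP60 stood at the 89.7 to 98.8 percentile of the genes on the 3 arrays of 60 min. Leaving out each replicate number in turn gave means of 1.17 to 2.09 at 60 min, the lowest without replicate 2, and the gene passed each time (largest adjusted p = 0.0369).

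HSP10 (YOR020C), which encodes the lid, was less far from 0 but more even at 60 min. Its log2 ratio was -0.63, 0.66 and 0.66 in replicates 1, 2 and 3 at 15 min, and 0.0288, 0.27 and 1.10 at 30 min. At 60 min it was 1.20, 0.93 and 0.87. The 3 values at 60 min spanned 0.34, against 1.30 at 15 min, where the replicates did not share a sign, and the range at 60 min overlapped that at 30 min. The mean was 0.23 ± 0.30 at 15 min, 0.47 ± 0.30 at 30 min and 1.00 ± 0.30 at 60 min (SE from limma, n = 3 each, adjusted p = 0.747, 0.423 and 0.0125). The call at 60 min was lost without replicate 1 (0.90, adjusted p = 0.0739), replicate 2 (1.04, adjusted p = 0.0862) or replicate 3 (1.07, adjusted p = 0.0700).

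The chaperonin and its lid were also set against each other within arrays. HSP60 minus HSP10 averaged 0.12 ± 0.81 (log2, SD, n = 8 arrays) and was above 0 on 5 of the 8 (exact sign-flip permutation test, two-sided, p = 0.727, adjusted p = 0.750 over 3 pairs). The test pooled the times and took the 8 arrays as independent, although they share replicate numbers, so it does not address 60 min alone. The mean of HSP60 minus HSP10 was -0.38 at 15 min (n = 2), -0.0703 at 30 min and 0.65 at 60 min (n = 3 each), and these means were not compared by a test. On single arrays the difference reached 1.68 (60 min, replicate 2) and -0.94 (30 min, replicate 3). Without replicate 2 its mean was -0.24 on 5 arrays.

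SSC1 (YJR045C) lay on the other side of 0 at 60 min. Its log2 ratio was 0.49, 1.64 and 0.0544 in replicates 1, 2 and 3 at 15 min. At 30 min it was 0.56, 0.38 and 0.39, and at 60 min -1.05, -0.49 and -1.37. All 6 values of the earlier times were above 0 and all 3 values of 60 min below it, with no overlap. The mean was 0.73 ± 0.30 at 15 min (SE from limma, n = 3, adjusted p = 0.209), 0.44 ± 0.30 at 30 min (adjusted p = 0.450) and -0.97 ± 0.30 at 60 min (95% interval -1.58 to -0.36, adjusted p = 0.0150). On the arrays of 60 min SSC1 stood at the 13.5, 33.6 and 3.01 percentile of the genes in replicates 1, 2 and 3. The fall at 60 min did not pass without replicate 1 (-0.93, adjusted p = 0.101) or replicate 3 (-0.77, adjusted p = 0.172), and passed without replicate 2.

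MDJ1 (YFL016C), a J-protein of Ssc1, gave its highest ratios at 15 and 30 min. Its log2 ratio was 0.33, 0.87 and 1.60 in replicates 1, 2 and 3 at 15 min and 2.36, 0.43 and 0.59 at 30 min. At 60 min it was 0.82 in replicate 1 and -0.63 in replicate 3, with no value in replicate 2, so it was not tested there. All 6 earlier values were above 0, and those of 60 min lay on either side. The mean was 0.94 ± 0.35 at 15 min (SE from limma, n = 3, 95% interval 0.22 to 1.65, adjusted p = 0.159) and 1.13 ± 0.35 at 30 min (95% interval 0.41 to 1.84, adjusted p = 0.0595). Replicate 1 set much of the mean at 30 min, which was 0.51 without it (adjusted p = 0.589). With the replicate number as a block MDJ1 passed in limma at 30 min (adjusted p = 0.00686) and at 15 min (adjusted p = 0.0372). At 30 min it passed in 3 of 11 alternatives, the others being only that time's arrays and array weights, and at 15 min in 1 of 11.

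MGE1 (YOR232W), the nucleotide release factor, stayed near 0 at the first 2 times. Its log2 ratio was -0.48, 0.27 and -0.40 in replicates 1, 2 and 3 at 15 min, and -0.78, 0.46 and 0.11 at 30 min. At 60 min it was 0.16, 1.25 and 0.24, all above 0, with replicate 2 the highest at every time. The mean at 60 min was 0.55 ± 0.30 (SE from limma, n = 3, 95% interval -0.0679 to 1.17, adjusted p = 0.162), and those at 15 and 30 min were -0.20 ± 0.30 and -0.0697 ± 0.30 (adjusted p = 0.782 and 0.935). The interval at 60 min therefore held both 0 and the mean of HSP10.

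**Figure D2:**
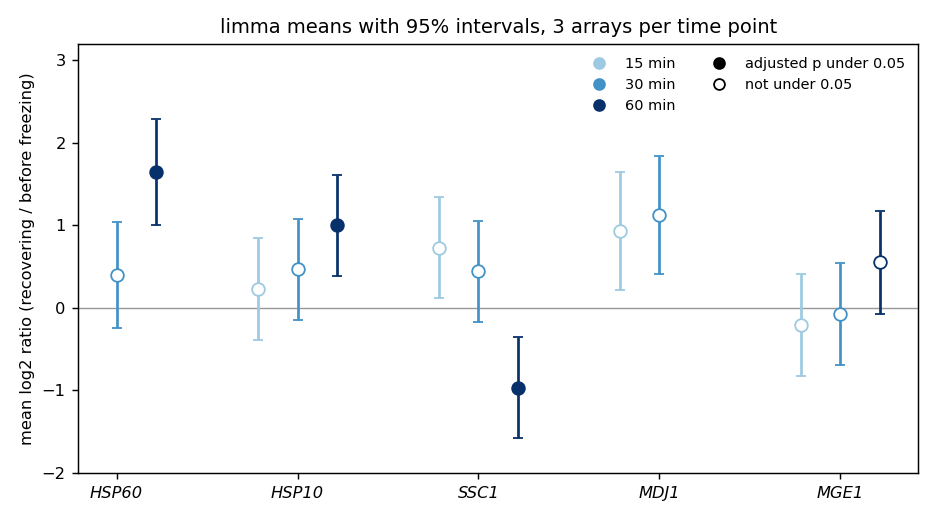
Mean log2 ratio of recovering cells over cells before freezing (vertical axis) with the 95% interval from limma for the 5 matrix chaperone genes tested, at the times when all 3 arrays had a value. Filled symbols passed at an adjusted p under 0.05, which were HSP60 (1.65), HSP10 (1.00) and SSC1 (-0.97), each at 60 min.

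ECM10 and JAC1 had a value on all 3 arrays at no time point. ECM10 (YEL030W), the paralog of SSC1, had log2 ratios of -0.57 and 0.21 in replicates 1 and 2 at 30 min and 0.53 in replicate 2 at 60 min. On that last array SSC1 was at -0.49. SSC1 minus ECM10 averaged 0.0943 ± 1.08 (log2, SD, n = 3 arrays; exact sign-flip permutation p = 0.750, where 0.250 is the smallest possible), and the mean was -0.42 without replicate 1. The sequences of the spots were not used here, and how much RNA of 1 paralog binds the spot of the other was not tested.

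JAC1 (YGL018C), the J-protein of iron-sulfur cluster transfer, was at 0.16 in replicate 1 and -0.62 in replicate 3 at 15 min. It was at 0.55 in replicate 1 at 30 min, and at 0.24 and 0.30 in replicates 2 and 3 at 60 min. These values all lay within 0.62 of 0. MDJ1 minus JAC1 was 0.18 and 2.22 in replicates 1 and 3 at 15 min, 1.81 in replicate 1 at 30 min and -0.94 in replicate 3 at 60 min (mean 0.82 ± 1.47, SD, n = 4 arrays; exact sign-flip permutation p = 0.375, where 0.125 is the smallest possible). Of the 4 pairs planned by function, SSC1 minus SSQ1 could not be formed.

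The times were then compared with each other, which leaves out any dye effect that is the same on all arrays. Arrays of the same replicate number were taken as independent here, except where a replicate block is named. Of the members tested, HSP10, SSC1 and MGE1, it was SSC1 that passed, being 3.24-fold lower at 60 min than at 15 min (-1.70 ± 0.42, SE from limma, n = 3 each, adjusted p = 0.0205). Of the 3 members tested in that comparison 1 passed, where 5.77% of 1871 genes passed in either direction, 2.41% as higher and 3.37% as lower. SSC1 ranked 1848 of 1871 from the highest difference. Without replicate 1, 2 or 3 the difference was -1.78, -1.48 and -1.84 and did not pass (adjusted p = 0.129, 0.236 and 0.133). HSP10 and MGE1 differed by 0.77 ± 0.43 and 0.75 ± 0.43 between 60 and 15 min (adjusted p = 0.260 and 0.275).

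Between 60 and 30 min the ratios of HSP60 and SSC1 moved apart, without passing the test. The difference was 1.25 ± 0.44 for HSP60 (95% interval 0.34 to 2.16, unadjusted p = 0.00878, adjusted p = 0.322 in limma) and -1.41 ± 0.42 for SSC1 (95% interval -2.28 to -0.55, unadjusted p = 0.00237, adjusted p = 0.279), which ranked 34 and 2446 of 2457. With the replicate number as a block, SSC1 passed (adjusted p = 0.0386) and HSP60 did not (adjusted p = 0.0620), while 18 genes passed as higher and 15 as lower. Without the block limma called 0 of 4 members (unadjusted p below 0.05 for 2), where 0.0407% of 2457 genes passed, 0% as higher. HSP10 and MGE1 differed by 0.53 ± 0.43 and 0.62 ± 0.43 (adjusted p = 0.651 and 0.612). Between 30 and 15 min limma called 0 of 4 members (unadjusted p below 0.05 for 0), beside 0% of 1853 genes, and the differences ran from -0.28 for SSC1 to 0.24 for HSP10.

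**Figure D3:**
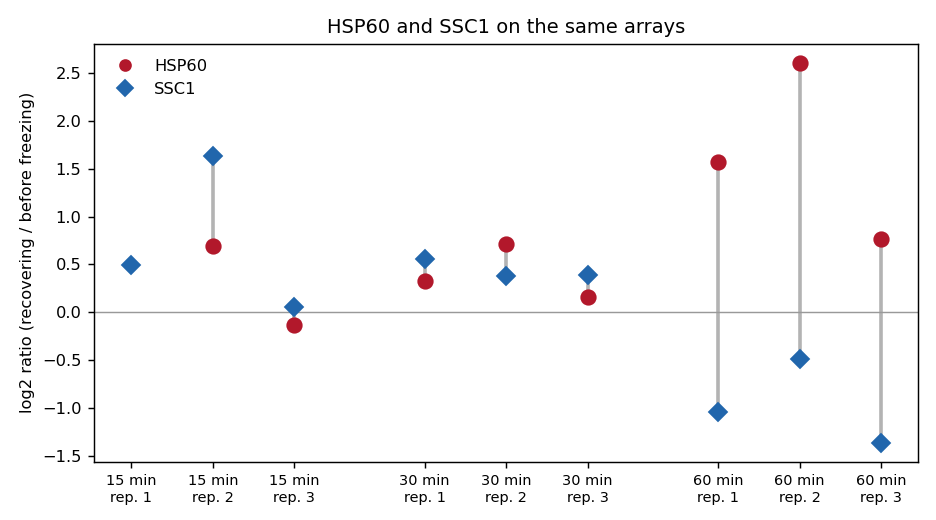
Log2 ratio of recovering cells over cells before freezing (vertical axis) of HSP60 (circles, 8 arrays) and SSC1 (diamonds, 9 arrays) on each array (horizontal axis), with a grey line joining the genes where both have a value. The gap is 2.14 to 3.10 on the arrays of 60 min and at most 0.95 in size on the earlier ones.

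HSP60 and SSC1 were compared on the same arrays as a description, since this pair was chosen after its values were seen. HSP60 minus SSC1 was -0.95 and -0.18 in replicates 2 and 3 at 15 min, and -0.24, 0.33 and -0.24 in replicates 1, 2 and 3 at 30 min. At 60 min it was 2.61, 3.10 and 2.14. On each array of 60 min the 2 ratios lay on opposite sides of 0, and the spread among the members of the set was 2.23 to 3.10 on those arrays, with SSC1 always the lowest member. At 30 min the members lay within 0.50 and 0.99 of each other in replicates 2 and 3, and within 3.14 in replicate 1, where MDJ1 was the highest and MGE1 the lowest.

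The genes whose ratios over the arrays were most like those of HSP60 and SSC1 were listed as a description. Over the 8 arrays with a value for HSP60, among 2088 genes, the highest Pearson correlations were those of HEM12 (0.981), an enzyme of heme synthesis, AFB1 (0.977), TRX1 (0.973), a cytosolic thioredoxin, YOR131C (0.972) and DAP1 (0.965), a heme-binding protein. MGE1 followed at rank 234 (0.80), HSP10 at rank 730 (0.38) and SSC1 at rank 1553 (-0.41). Over all 9 arrays, among 1656 genes, the highest correlations with SSC1 were those of ERO1 (0.979), the oxidase of disulfide formation in the endoplasmic reticulum, BFR1 (0.974), YAP1 (0.953), a transcription factor of the oxidative stress response, COT1 (0.947), a vacuolar metal transporter, and YFR006W (0.945). MGE1 (-0.27) and HSP10 (-0.44) were at ranks 1040 and 1274. The arrays share times, platforms and dye orientation, and no test was made of these correlations.

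The closest partners of the matrix chaperones were mostly measured on few arrays. HSP78 (YDR258C), the matrix disaggregase that works with Ssc1, was at 1.65 in replicate 3 at 15 min and at 2.52 and 2.37 in replicates 1 and 3 at 30 min. It was at 3.23 and 1.01 in replicates 2 and 3 at 60 min, so each of its 5 values was above 1. PIM1 (YBL022C), the Lon protease of the matrix, was at 0.49 in replicate 3 at 15 min, 0.58 and 0.91 in replicates 1 and 3 at 30 min and 0.86 in replicate 3 at 60 min. Neither gene had a value on all 3 arrays of a time. With at least 2 values allowed in limma, HSP78 was higher at 30 min (2.44 ± 0.41, SE, n = 2, adjusted p = 0.000764) and at 60 min (2.12 ± 0.41, n = 2, adjusted p = 0.000684), where 3.62% of 4559 and 25.6% of 4227 genes passed. Between 60 and 30 min it differed by -0.33 (adjusted p = 0.901), and PIM1 was at 0.75 ± 0.36 at 30 min (n = 2, adjusted p = 0.280). TIM44 (YIL022W), which anchors Ssc1 at the import channel, was at 0.13 ± 0.28 at 30 min and -0.24 ± 0.28 at 60 min (SE from limma, n = 3 each, adjusted p = 0.865 and 0.536), with a difference of -0.37 between 60 and 30 min (adjusted p = 0.763). ZIM17 (YNL310C), which keeps Ssc1 soluble, was at 0.0348 in replicate 3 at 15 min, 0.49 and 0.0591 in replicates 1 and 3 at 30 min and -0.40 in replicate 2 at 60 min. With at least 2 values allowed it was at 0.27 at 30 min (adjusted p = 0.782).

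Among 17 listed mitochondrial proteases, prohibitins and folding helpers, 5 of the 12 tested at 60 min rose and 1 fell (median 0.13, against -0.0563 over all genes tested), where 15.6% of all genes tested passed as higher and 17.5% as lower. They were PCP1, a rhomboid protease of the inner membrane (1.85 ± 0.33, adjusted p = 0.000171), FMC1 (1.38 ± 0.31) and ATP12 (0.81 ± 0.28), which help assemble the ATP synthase, the prohibitin PHB2 (1.34 ± 0.29) and the inner membrane protease YME1 (0.80 ± 0.28), which was named because the group is small. OMA1, another inner membrane protease, fell by 0.85 ± 0.30 on the log2 scale. PHB1, the partner of PHB2 in the prohibitin ring, was at -0.0323 ± 0.29 (adjusted p = 0.942), and CPR3, the matrix cyclophilin, at -0.20 ± 0.28 (adjusted p = 0.623). Both were named after their values were seen. At 30 min, where 4.34% of all genes passed, 1 of 12 rose, PHB2 (1.004 ± 0.29, adjusted p = 0.0432), a call lost whichever replicate number was left out (adjusted p = 0.158 to 0.256). At 15 min limma called 0 of 7 (unadjusted p below 0.05 for 2). With at least 2 values allowed, 3 of 16 passed as higher at 30 min, and 6 of 15 as higher and 2 as lower at 60 min, the added genes being HSP78 at both times, PCP1 at 30 min (1.57, adjusted p = 0.0245) and MCX1 at 60 min (-1.08, adjusted p = 0.0333). With at least 2 values 2.15% of 4559 genes passed as higher at 30 min, and 12.4% of 4227 as higher and 13.2% as lower at 60 min. With all 3 values asked for, the medians of the list were 0.0654 at 15 min and 0.0428 at 30 min, against -0.0534 and -0.0799 over all genes tested.

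Of the TIM23 channel and its import motor, 11 genes listed, 2 of 8 tested at 60 min rose and 0 fell (median -0.0847). Over all genes 15.6% passed as higher and 17.5% as lower, 33.2% in either direction. The 2 genes that rose were TIM17, a core subunit of the channel (1.21 ± 0.34, adjusted p = 0.00736), and MGR2 (1.0003 ± 0.30, adjusted p = 0.0130). TIM17 was at 0.98, -0.25 and -0.70 in replicates 1, 2 and 3 at 15 min and at 1.06, 2.05 and 0.52 at 60 min, and its call was lost without replicate 2 (0.79, adjusted p = 0.224). At 15 and 30 min limma called 0 of 4 and 0 of 9 (unadjusted p below 0.05 for 0 and 1), with medians of -0.0318 and -0.0590. In the processing of presequences, the signals cut from imported proteins, 1 of 3 tested genes of 8 listed rose at 60 min (median 0.46), beside the same 15.6% as higher. The gene was MAS2, a subunit of the matrix processing peptidase (1.06 ± 0.33, adjusted p = 0.0150). It was at 0.64, 2.12 and 0.43 in replicates 1, 2 and 3, and at 0.54 without replicate 2 (adjusted p = 0.232). For these genes limma called 0 of 1 at 15 min and 0 of 4 at 30 min (unadjusted p below 0.05 for 0), with medians of -0.42 and 0.35.

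Of 15 listed genes of iron-sulfur cluster assembly, the pathway of Ssq1 and Jac1, 2 of 10 tested at 60 min rose and 1 fell (median 0.42), a share close to the 33.2% of all genes. ISU1, the scaffold protein from which Ssq1 and Jac1 release the cluster, was at 1.52, 2.14 and 0.53 in replicates 1, 2 and 3 and rose 2.64-fold (1.40 ± 0.31, adjusted p = 0.00133). The call did not hold without replicate 2 (1.03, adjusted p = 0.0632). The glutaredoxin GRX5 was at 0.80 ± 0.29 (adjusted p = 0.0330) and NFU1, a protein of late cluster delivery, at -0.87 ± 0.27 (adjusted p = 0.0168), both calls being lost whichever replicate number was left out (adjusted p up to 0.207 and 0.121). NFU1 was below 0 on all 9 arrays (-1.33 to -0.38). In this list limma called 0 of 7 at 15 min and 0 of 8 at 30 min (unadjusted p below 0.05 for 3 and 2), with medians of -0.0734 and 0.27. Over these 4 mitochondrial lists, 12 of 33 tested genes passed at 60 min, a share close to the 33.2% of all genes in either direction. The directions were less alike, with 10 higher and 2 lower, where 15.6% of all genes passed as higher and 17.5% as lower. The lists were chosen with earlier results of these data known, and this split was not tested. Of the 12, PCP1, FMC1 and PHB2 passed whichever replicate number was left out. Leaving out 1 replicate number in turn gave MGR2 a largest adjusted p of 0.172, ATP12 0.127, YME1 0.185 and OMA1 0.362.

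**Figure D4:**
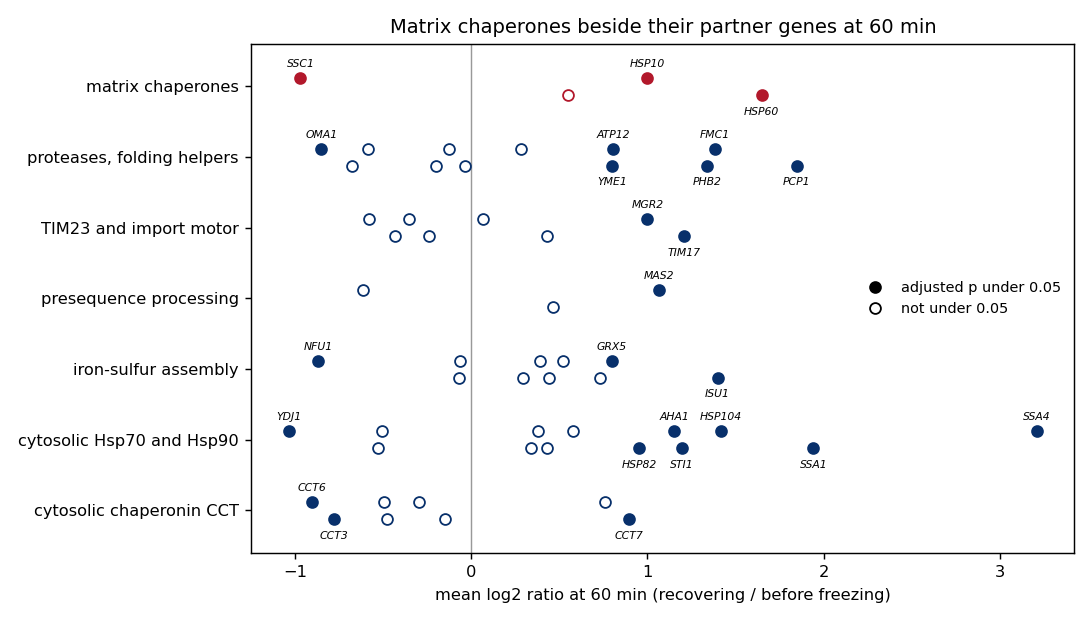
Mean log2 ratio of recovering cells over cells before freezing at 60 min (horizontal axis) for every tested gene of the matrix chaperones (top) and of 6 lists of partner genes and cytosolic chaperones (below), with filled, named symbols for an adjusted p under 0.05 in limma. Each list holds genes on either side of 0, and SSC1 (-0.97) and YDJ1 (-1.03) lie on the left of lists in which other chaperones lie on the right.

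The cytosolic counterparts give the same roles outside the mitochondrion. In the list of cytosolic Hsp70 and Hsp90 chaperones and partners, 3 of 11 tested genes rose at 15 min and 3 of 15 at 30 min, with 0 lower, and at 60 min 6 of 13 rose and 1 fell (medians 0.34, 0.45 and 0.58). Over all genes 0.838%, 2.29% and 15.6% passed as higher at the 3 times, and 0.326%, 2.05% and 17.5% as lower. The 3 genes at 15 min were HSP104, the cytosolic disaggregase (2.22), and the stress-induced Hsp70s SSA4 (1.74) and SSA1 (1.32), with adjusted p = 2.98e-05, 0.00147 and 0.0341. The same 3 passed at 30 min, SSA4 at 2.53 (adjusted p = 4.59e-06), HSP104 at 1.46 (adjusted p = 0.00284) and SSA1 at 1.32 (adjusted p = 0.0156). SSA4 at 30 min passed whichever replicate number was left out, and the other 5 of these calls were lost without at least 1. SSA4 was at 1.01, 1.97 and 2.24 in replicates 1, 2 and 3 at 15 min and at 3.07, 3.62 and 2.94 at 60 min, and rose 9.26-fold at 60 min (3.21 ± 0.30, adjusted p = 9.26e-09). SSA1 (1.94 ± 0.33), HSP104 (1.42 ± 0.29) and STI1, a co-chaperone of Hsp90 (1.20 ± 0.33), followed. YDJ1, the main cytosolic J-protein, was the gene of this list that fell, at -0.63, -1.03 and -1.44 in replicates 1, 2 and 3 at 60 min (-1.03 ± 0.30, adjusted p = 0.00924), and without replicate 3 it was at -0.83 (adjusted p = 0.152). It was also lower at 60 min than at 15 min (-1.37 ± 0.42, adjusted p = 0.0486), as SSA4 was higher (1.47 ± 0.42, adjusted p = 0.0384), and both of these calls were lost whichever replicate number was left out. STI1 did not pass at 60 min without replicate 1 or 2 (largest adjusted p = 0.175).

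The CCT complex is the cytosolic chaperonin, of which all 8 subunits listed were tested at 60 min. Of these 3 passed, near the 33.2% of all genes. CCT7 was higher (0.90 ± 0.35, adjusted p = 0.0470), and CCT6 (-0.90 ± 0.28, adjusted p = 0.0160) and CCT3 (-0.78 ± 0.30, adjusted p = 0.0469) were lower, with a median of -0.38 over the 8. The 3 calls were each lost without some replicate numbers, and CCT7 was at 0.11, 2.19 and 0.40 in replicates 1, 2 and 3, with a mean of 0.25 without replicate 2 (adjusted p = 0.578). CCT6 was at -0.58 without replicate 3 (adjusted p = 0.258), and the largest adjusted p of CCT3 without 1 replicate number was 0.216. Of the subunits limma called 0 of 7 at 15 min and 0 of 8 at 30 min (unadjusted p below 0.05 for 0), with medians of -0.0169 and 0.0317. The medians are given beside 1.65 and 1.00 for HSP60 and HSP10 at 60 min, and the difference between the chaperonins was not tested.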

How the data were processed

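The deposited values were normalized by LOWESS by the authors, from spots flagged 0, per the labels. They were read as log2 ratios from the deposited values themselves, since the lowest (-6.64) is the log2 of 0.01. No source used here names the scanner, background correction or build. Of 6272 spots per platform, 5297 and 5291 had 1 symbol and 0 had several; spots of a gene were averaged, and 5185 of 5189 genes matched RefSeq (assembly R64, used for names). No missing value was imputed.

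One limma fit (version 3.58.1 in R 4.3.3) took the 9 arrays, a mean for each time and no covariate. It took arrays of the same replicate number as independent, and the fit with the replicate number as a block is given as an alternative. The fit was tested on simulated data with independent noise on each array, which did not check that independence. Standard errors come from 1 moderated spread per gene. P-values were adjusted over all genes tested. Precision is limited by 3 arrays per time. Whether arrays shared a control culture is not stated. Pairs of genes were compared with exact sign-flip tests over arrays in Python 3.11.15, which pooled the times and took the arrays as independent.

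Members and lists were chosen with earlier results of these data known. Every member, HSP78, PIM1, TIM44 and ZIM17 were named in each comparison, and up to 4 passed genes per list, direction and time. Deviations of same-numbered replicates from their time means correlated at 0.14 to 0.47 between 60 and 30 min. In the comparisons with 15 min those of replicate 1 were near 0 (0.0220 with 60 min and 0.0392 with 30 min). Replicates 2 and 3 correlated at 0.526 and 0.347 between 60 and 15 min, and at 0.166 and 0.168 between 30 and 15 min. Replicates of different numbers correlated at -0.395 to 0.0523 between 60 and 30 min. They correlated at -0.607 to 0.296 between 60 and 15 min, and at -0.24 to 0.10 between 30 and 15 min. Deviations from a mean of 3 arrays depend on each other, and replicate 1 was alone on its platform. Whether the numbers pair the samples was therefore not established. Alternatives were leaving out each replicate number, the replicate block, platform as a term, centring, scaling, fewer arrays per fit, at least 2 values, the lowest value as missing, and array weights. No sequences were used, and the promoter search was not run.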

Additional observations from a re-analysis of the deposited data

Results flagged for a closer look

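Results that differed between time points by limma's test of the difference were those of SSC1, YDJ1 and SSA4, each between 60 and 15 min. SSC1 was lower at 60 min by a log2 difference of -1.70 (adjusted p = 0.0205), with all 3 values of 60 min below all 3 of 15 min. YDJ1 was lower by -1.37 (adjusted p = 0.0486), likewise without overlap. SSA4 was higher by 1.47 (adjusted p = 0.0384), again without overlap. In this comparison 5.77% of 1871 genes passed. Each of the calls of SSC1, YDJ1 and SSA4 was lost whichever replicate number was left out.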

How the results depend on the processing

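Of 264 values of the 5 tested members under 11 alternatives, 245 kept direction and side of the threshold. HSP60 at 60 min passed in all 11 (adjusted p = 1.48e-06 to 0.0369), SSC1 in 9 and HSP10 in 7. The number of members passed at 60 min was 1 to 2 without 1 replicate number, and scaling arrays to 1 median absolute deviation left 1 higher and 1 lower, HSP10 being at 0.85 (adjusted p = 0.0797). Between 60 and 15 min it was 0 without any 1 replicate number and 0 after that scaling (SSC1 at -1.50, adjusted p = 0.102). It was 1 with the replicate block at 15 min and 30 min (MDJ1, adjusted p = 0.0372 and 0.00686) and between 60 and 30 min (SSC1), and the block changed no other call of a member. MDJ1 also made it 1 at 30 min with only that time's arrays (adjusted p = 0.0193) and with array weights (0.93, adjusted p = 0.0223). Signs turned for MGE1 at 30 min without replicate 1 (leave-one-out range -0.34 to 0.29), and between 30 and 15 min for MDJ1 without replicate 1 (-0.73 to 0.79), SSC1 without replicate 2 (-0.60 to 0.20) and MGE1 without replicate 3 (-0.0541 to 0.35). They turned too for SSC1 minus ECM10 without replicate 1 (-0.42) and HSP60 minus HSP10 without replicate 2 (-0.24); the leave-one-out range was -0.42 to 0.0943 for SSC1 minus ECM10 and -0.24 to 0.56 for HSP60 minus HSP10. SSC1 minus ECM10 had no value without replicate 2, which left 1 array. The cause was not tested. Over all genes the counts higher and lower at 15 min (18 and 7) ran from 0 to 88 and 0 to 73, at 30 min (76 and 68) from 16 to 192 and 4 to 271, at 60 min (461 and 518) from 206 to 575 and 241 to 655, between 60 and 15 min (45 and 63) from 0 to 131 and 0 to 160, and between 60 and 30 min (0 and 1) from 0 to 18 and 0 to 15. Centring moved the split at 15 min to 12 higher and 2 lower. None of 341 values of passed list genes changed sign.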

Other observations

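Members with 2 values at a time point were tested when limma's fit asked for at least 2 values per time. HSP60 was then at 0.28 ± 0.38 at 15 min (SE, adjusted p = 0.810) and differed by 1.37 ± 0.50 between 60 and 15 min (adjusted p = 0.120). MDJ1 was at 0.0936 ± 0.43 at 60 min (adjusted p = 0.900) and differed by -1.03 ± 0.55 between 60 and 30 min (adjusted p = 0.613). JAC1 was at -0.23 ± 0.36 at 15 min and 0.27 ± 0.36 at 60 min (adjusted p = 0.830 and 0.614), and ECM10 at -0.18 ± 0.36 at 30 min (adjusted p = 0.866). None of these values passed. Among the listed partner and cytosolic genes that only this setting tested, PRD1 (1.36, adjusted p = 0.00733), ISU2 (1.17, adjusted p = 0.0176), IBA57 (1.05, adjusted p = 0.0299), SSE2 (1.80, adjusted p = 0.000781) and SSA3 (0.96, adjusted p = 0.0498) passed as higher at 60 min, beside HSP78 as higher and MCX1 as lower, and at 30 min HSP78 and PCP1 passed as higher. Over all genes tested in this setting, 12.4% of 4227 passed as higher and 13.2% as lower at 60 min, and 2.15% of 4559 as higher at 30 min. CCT3 (adjusted p = 0.0565) and CCT7 (adjusted p = 0.0567) no longer passed at 60 min, nor did SSA4 (adjusted p = 0.0581) and YDJ1 (adjusted p = 0.0717) between 60 and 15 min. These genes were named after their values were seen.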
